A study of Lobosphaera incisa with 32 samples.

Results

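The genes described here are 150 genes of the green microalga Lobosphaera incisa. Their pooled transcript level was raised after 12 h of nitrogen (N) deprivation and at 72 h under both light intensities. They were ranked by the smallest of these rises. A gene had to reach at least 10 FPKM (a read count scaled for transcript length and sequencing depth) in each of the 3 N-deprived conditions, which 7034 of the 16722 gene models did. Its score was the smallest of its 3 log2 ratios to the replete culture, taken on FPKM + 1, and the 150 highest scores were kept. Both genes that the study had already named in this score range were left out: MLDP (g555), the major protein of the lipid droplet surface in green algae, and DesD5 (g4602), the Δ5 desaturase that makes arachidonic acid. The members were thus chosen by their rise in pooled FPKM over the replete culture, and every value of that rise below is a description.

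L. incisa is known for storing arachidonic acid in triacylglycerols when N runs out. In N-deprived green algae growth stops, pigments, ribosomes and membrane lipids are broken down, and carbon is directed to triacylglycerols that are packed into lipid droplets, with starch as a further store. Autophagy, the delivery of cell material to the vacuole, takes part in this recycling. The files give the members as gene numbers without product names, so no function is given for any of them here.

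RNA was sequenced from strain SAG 2468 in 4 conditions. Control was the replete culture in logarithmic growth at 0 h under normal light (NL, 75 µmol photons per square metre per second). Nst12hHL was deprived of N for 12 h under high light (HL, 150 µmol), Nst72hNL for 72 h under 75 µmol and Nst72hHL for 72 h under 150 µmol. All cultures were axenic and bubbled with CO2-enriched air, and the labels give 2 biological replicates with 4 technical replicates each, 32 samples in all. The replete culture was sampled at 0 h alone, so N deprivation, time in the experiment and, for both HL conditions, the brighter light cannot be told apart against Control. Nst12hHL and Nst72hNL differ in time and in light.

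The quantification tables hold 1 pooled value per condition. The whole read counts of 2 libraries behind each condition were recovered from the authors' mean normalised counts, and are given as CPM (counts scaled to the library total with a TMM factor). They are called the shallower and the deeper library of a condition, because their replicate numbers could not be assigned. The library totals were 30976126 and 61655769 counts in Control, 67599537 and 132491755 in Nst12hHL, 120360971 and 139975475 in Nst72hNL, and 68955254 and 84194755 in Nst72hHL. They are taken to be the 2 biological replicates, which the sources used here do not state, and the p-values measure the spread between them. Counts of all 150 members were recovered in all 8 libraries.

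The libraries of a condition did not agree equally well. Over the 15075 genes tested, the correlation of log2 CPM between the libraries was 0.964 in Control, 0.976 in Nst12hHL, 0.997 in Nst72hNL and 0.970 in Nst72hHL. The median fold between the libraries was 1.30, 1.22, 1.07 and 1.24 in that order. The close Nst72hNL pair still differed beyond counting noise, with 52.8% of genes past a binomial z of 1.96, so it was not counted as 1 library deposited in 2 copies. That does not show whether the pair are separate cultures or technical splits of 1.

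Among the members, the Control libraries lay furthest apart. The median fold between them was 1.74, and 65 members (43.3%) differed at least 2-fold, against 12.5% of all genes tested. The difference had a direction: 64 of the 65 were higher in the deeper Control library. All 64 lay nearer there to the mean of the N-deprived libraries than in the shallower one. Members were selected for N-deprived levels above Control, so the higher Control library of a member lies nearer to that mean by selection. Nothing is read from this count. Of the 1882 genes tested that were 2-fold apart in Control, 79.5% lay nearer to the N-deprived libraries in the deeper library. The members took 0.349% of the counts in the shallower Control library and 0.589% in the deeper one. In g11487 the level was 4.16 CPM in the shallower and 66.6 CPM in the deeper Control library, in its numerical neighbour g11486 it was 3.73 and 37.6 CPM, and in g15721 it was 49.9 and 350.3 CPM. These 3 genes were picked for their spread. g14031 was the member that was at least 2-fold higher in the shallower Control library, with 18.2 against 6.82 CPM.

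**Figure D1:**
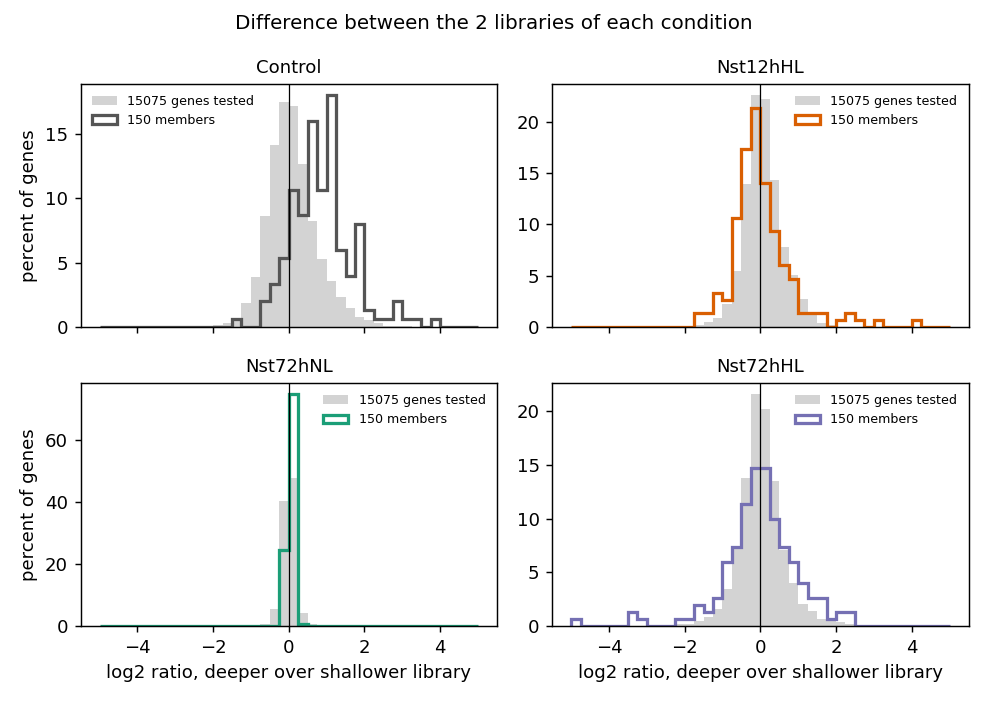
Log2 ratio of the deeper to the shallower library in each condition (x axis) for the 15075 genes tested (grey bars) and the 150 members (coloured outline), as percent of genes in each group (y axis). In Control the members are shifted to the right, with 64 at least 2-fold higher in the deeper library. In Nst72hNL no member is 2-fold apart, and in Nst72hHL members lie in both tails.

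In the N-deprived conditions the spread was smaller and had less of a direction. In Nst12hHL 21 members (14.0%, against 6.54% of genes tested) were 2-fold apart, 9 higher in the shallower and 12 in the deeper library. In Nst72hNL no member was. In Nst72hHL 34 members (22.7%, against 9.34%) were 2-fold apart, 15 higher in the shallower and 19 in the deeper library. Wide gaps in Nst72hHL, picked for their size, were these: g11640 was at 1476 CPM in the shallower and 44.6 CPM in the deeper library, g12337 at 579.8 and 52.9 CPM, and g14547 at 96.1 and 498.7 CPM. A mean over such a pair describes neither library.

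By the selection, the members were at lower levels in replete cells than in N-deprived ones, and the values here describe that. Their median pooled level was 7.22 FPKM in Control, 53.1 FPKM in Nst12hHL, 65.7 FPKM in Nst72hNL and 92.5 FPKM in Nst72hHL. The range was 0.15 to 173.2 FPKM in Control, 10.1 to 800.1 FPKM at 12 h, 10.9 to 2246 FPKM at 72 h under NL and 10.4 to 1557 FPKM at 72 h under HL. In Control 11 members were under 1 FPKM and 77 between 1 and 10 FPKM, 51 lay between 10 and 50 FPKM, and 11 were at or above 50 FPKM. The median member stood at percentile 42.4 of all genes by FPKM in Control, and at percentiles 86.3, 91.0 and 93.3 in Nst12hHL, Nst72hNL and Nst72hHL. The share of pooled expected counts that came from the members was 0.508% in Control, 2.90% at 12 h, 5.05% at 72 h under NL and 5.43% at 72 h under HL. In the N-deprived libraries that share ran from 2.76% to 5.54%, above both Control libraries.

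**Figure D2:**
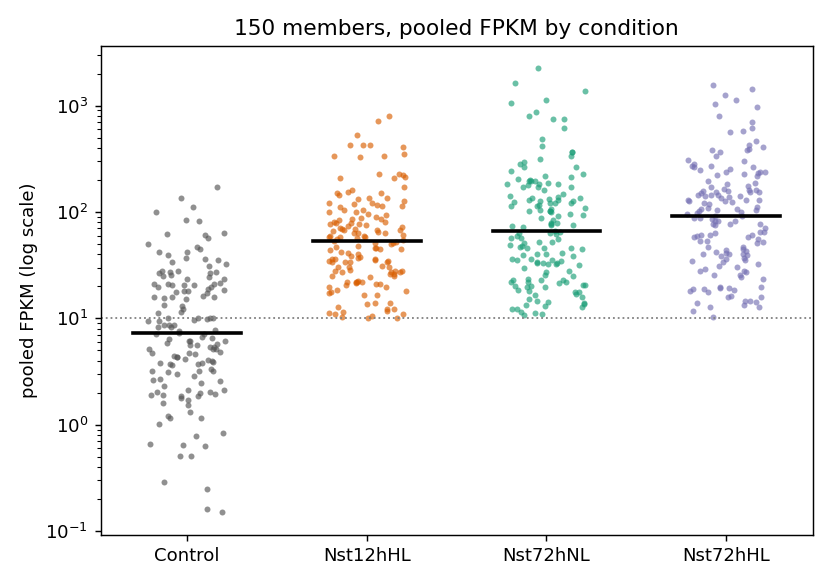
Pooled FPKM (y axis, log scale) of each of the 150 members (points) in the 4 conditions, with the median as a black bar and the 10 FPKM minimum of the selection as a dotted line. The median goes from 7.22 FPKM in Control to 53.1, 65.7 and 92.5 FPKM in Nst12hHL, Nst72hNL and Nst72hHL.

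The size of the rise was uneven across members. The median ratio of pooled FPKM to Control was 5.71 at 12 h, 7.31 at 72 h under NL and 10.1 at 72 h under HL, and 43, 58 and 75 members reached a ratio of 10. The smallest of the 3 changes, which set the score, was that of Nst12hHL in 86 members, of Nst72hNL in 46 and of Nst72hHL in 18. On the log2(FPKM + 1) scale the median change was 2.35, 2.68 and 3.01, beside 0.20, -0.05 and -0.08 over all genes, so the FPKM values at 12 h carry a general shift of 0.20.

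In the recovered libraries 144 members had all 6 N-deprived libraries above both Control libraries, beside 14.9% of the 15238 genes with recovered counts. In 110 members the lowest N-deprived library was more than 2 times the higher Control library, beside 1.88% of genes. The 6 members whose libraries overlapped were g12039, g15392, g12011, g7817, g4770 and g4771. In all 6 it was the shallower Nst12hHL library that lay at or under the deeper Control library. In g4770 the Control libraries were at 15.9 and 96.3 CPM, the Nst12hHL libraries at 41.7 and 232.9 CPM, and all libraries at 72 h at or above 2035 CPM. By edgeR's quasi-likelihood test on the recovered counts, with Benjamini-Hochberg adjustment over 15075 genes, 131 members were called higher at 12 h than in Control (15.8% of genes tested), 149 at 72 h under NL (17%) and 150 at 72 h under HL (17.6%). By edgeR 0 were called lower (8.53%, 19.4% and 18.4% of genes tested), also at an unadjusted p under 0.05 and by DESeq2. In pooled values all 150 rose at least 2-fold on the log2(FPKM + 1) scale in each condition, beside 16.8%, 9.64% and 9.88% of 14204 genes, and 2.70% of genes did so in all 3. The selection used these contrasts, and the counts are given as a description. g7378 was the member not called at 72 h under NL, with 1.87 and 8.77 CPM in Control and 20.0 and 22.5 CPM in Nst72hNL.

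The score is a ratio to Control, so it favours genes of low level in the replete culture. The genes of highest score are described here. g10247 headed the list: its pooled level was 2.12 FPKM in Control (deposited 95% interval 2.00 to 2.25) and 350.3, 193.6 and 247.9 FPKM in Nst12hHL, Nst72hNL and Nst72hHL. Its libraries were at 4.03 and 8.80 CPM in Control, 1139.9 and 1035 CPM at 12 h, 679.4 and 692.2 CPM at 72 h under NL, and 678.5 and 1040.0 CPM at 72 h under HL. The N-deprived libraries of g10247 lay close together and far above both Control libraries.

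The next 3 genes had the same form at lower levels. g16332, a short model of 503 bases, was at 0.196 and 0.578 CPM in Control (6 and 36 reads) and between 30.5 and 68.3 CPM in the N-deprived libraries. g12104 was at 3.08 CPM in both Control libraries and between 188.8 and 415.9 CPM in the N-deprived ones. g15900 was at 0.262 and 0.401 CPM in Control and between 36.8 and 126.1 CPM after N deprivation. The groups did not overlap in any of these genes, which selection by score favours.

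g12922 was at 3.86 and 7.98 CPM in Control and between 158.7 and 382.5 CPM in the N-deprived libraries. g15000 was at 2.98 and 4.26 CPM in Control and between 103.3 and 198.3 CPM after N deprivation. g14631 was at 0.851 and 3.08 CPM in Control, and its N-deprived libraries ran from 73.5 CPM at 12 h to 434.3 CPM at 72 h under HL. g14031 was called higher at 72 h than at 12 h under both lights, with calls lost when single libraries were left out: its libraries were at 141.2 and 224.0 CPM at 12 h, 710.9 and 779.2 CPM at 72 h under NL, and 1373 and 509.0 CPM at 72 h under HL.

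**Figure D3:**
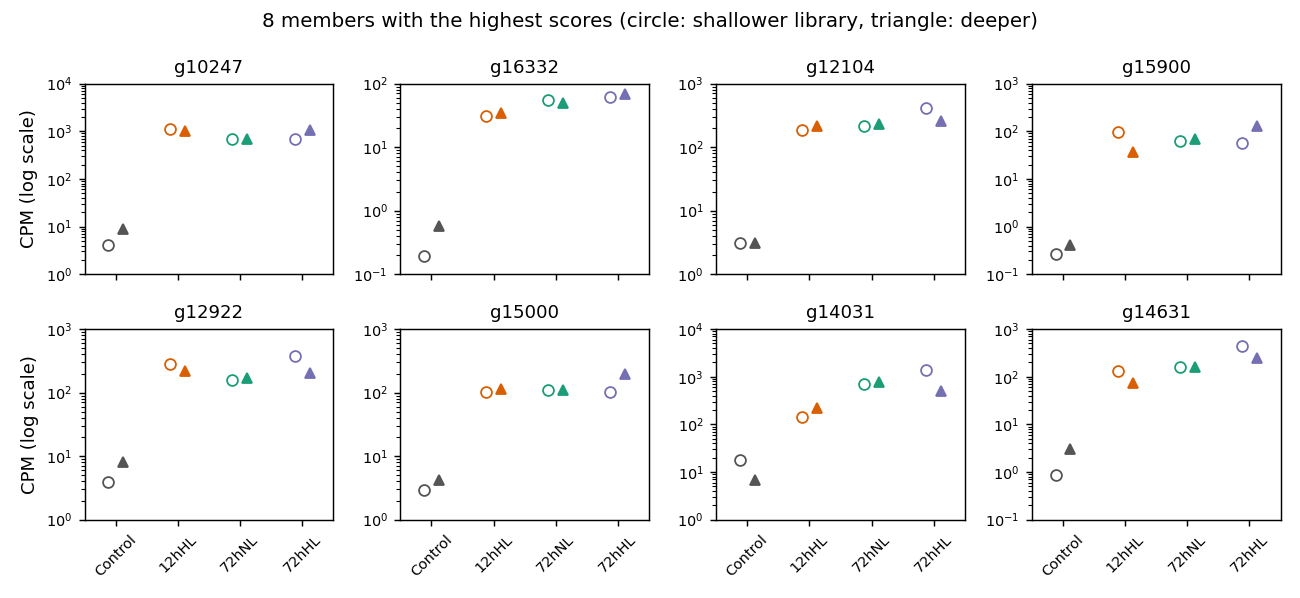
CPM (y axis, log scale) of the 8 members with the highest scores in the 2 libraries of each condition (circle, shallower; triangle, deeper). In every panel all 6 N-deprived libraries lie above both Control libraries, as in g10247 with 4.03 and 8.80 CPM in Control and 678.5 to 1139.9 CPM after N deprivation.

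The most abundant members under N deprivation were not those of highest score. Summed over the N-deprived conditions, g12877, g3218, g10970, g6664, g12011 and g15721 had the highest FPKM. These 6 genes held 16.5% of the members' pooled expected counts in Control, 18.2% at 12 h, 34.0% at 72 h under NL and 28.4% at 72 h under HL. g6664 was the member of highest level in Control, with 173.2 FPKM, and was at 800.1, 1117 and 1032 FPKM in Nst12hHL, Nst72hNL and Nst72hHL. g3218 was at 84.7 FPKM in Control and at 721.8, 1361 and 1139 FPKM. g15721 was at 63.9 FPKM in Control and at 530.4, 873.3 and 960.9 FPKM. These 3 genes had most of their level by 12 h, whereas g12877, g10970 and g12011 had little of it then.

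The course from 12 h to 72 h was compared next. The selection used the levels of all 3 N-deprived conditions, and the smallest change was that of Nst12hHL in 86 members, so the counts of higher and of lower calls are both shaped by it and are a description. Against Nst12hHL, 44 members were higher at 72 h under NL (14.9% of genes tested) and 9 were lower (22.8%). At 72 h under HL 55 members were higher (12.8%) and 6 were lower (18.9%). The members called higher were 29.3% and 36.7% of the 150, and those called lower 6% and 4%. The median log2 change of the members was 0.46 under NL and 0.75 under HL, beside -0.05 and 0.01 over all genes. By pooled FPKM with no test, 37 and 48 members were at least 2-fold higher at 72 h under NL and HL (7.44% and 6.49% of 14204 genes) and 16 and 6 were 2-fold lower (21.4% and 19.4%).

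These counts depended on single libraries. The counts below were not made over all genes, so no share stands beside them, and they show nothing particular to the members. Without the shallower or the deeper Nst12hHL library, 21 members each were called higher at 72 h under NL, and 29 and 23 under HL. Without the shallower or the deeper Nst72hNL library the count under NL was 17 and 16, and without the shallower Nst72hHL library the count under HL was 32. The members called in all 12 alternatives were 11 higher and 3 lower under NL, and 12 higher and 1 lower under HL.

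Set against each light in turn, 38 members were higher at 72 h under both (9.45% of genes tested) and 3 were lower under both (17%). Another 6 were higher under NL alone (5.41%) and 17 under HL alone (3.26%), and 6 were lower under NL alone (5.70%) and 3 under HL alone (1.92%). By edgeR 0 members were called in opposite directions (0.0995%). The remaining 77 passed the test in neither comparison (57.2%), and their log2 changes ran from -1.88 to 1.82 under NL and from -0.97 to 1.79 under HL. Their median pooled levels were 7.82 FPKM in Control, 61.1 FPKM at 12 h, 62.3 FPKM at 72 h under NL and 82.9 FPKM at 72 h under HL. The 38 members that rose under both lights had median levels of 12.4, 48.8, 139.1 and 157.9 FPKM in the same order. Both comparisons share the Nst12hHL libraries.

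g12877 had the largest later rise. Its libraries were at 27.8 and 43.8 CPM in Control and 80.7 and 99.4 CPM at 12 h, and at 72 h it was at 5240 and 5230 CPM under NL and 5308 and 1586 CPM under HL. From 12 h it rose by 5.86 ± 0.66 (SE) on the log2 scale under NL (edgeR adjusted p = 0.000483) and by 5.26 ± 0.64 under HL (edgeR adjusted p = 0.000683). Both calls held in all 12 alternatives. At 12 h it was 2.52-fold above Control and did not pass the test (edgeR adjusted p = 0.116). The 72 h libraries stood far above the others, and the deeper Nst72hHL library was the lowest of the 4.

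g10970 followed a like course. It was at 19.4 and 75.6 CPM in Control, 95.1 and 226.9 CPM at 12 h, 2694 and 3041 CPM at 72 h under NL and 2583 and 2576 CPM at 72 h under HL. The log2 rise from 12 h was 4.15 ± 0.71 under NL (edgeR adjusted p = 0.00296) and 4.00 ± 0.70 under HL (edgeR adjusted p = 0.00373), and both calls held in all 12 alternatives. Its 12 h call against Control was not made (edgeR adjusted p = 0.0810).

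g4770 and g11640 completed the 4 highest ratios of 72 h to 12 h, with calls that rested on single libraries. For g4770 the log2 rise was 4.08 ± 1.00 under NL (edgeR adjusted p = 0.0143), and it did not pass without the shallower Nst12hHL library (0.0636). Under HL it was 4.06 ± 1.00 (0.0169), lost without the shallower Nst12hHL library (0.0706) or the shallower Nst72hHL library (0.0620). For g11640 the libraries were at 2.55 and 4.40 CPM in Control, 38.1 and 26.7 CPM at 12 h, 1155 and 1206 CPM at 72 h under NL, and 1476 and 44.6 CPM at 72 h under HL. The Nst72hHL mean of g11640 came from its shallower library alone, and without that library the adjusted p against 12 h was 0.433. Under NL the log2 rise of g11640 was 5.19 ± 1.31 (edgeR adjusted p = 0.0163), and it was lost without either Nst12hHL library (0.0893 and 0.131) and without either Nst72hNL library (0.0579 and 0.0610).

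Members called higher under both lights in all 12 alternatives were g15318, g15319, g10085, g10970, g10671, g12144, g12877 and g10941, named here for that reason. g15319 was at 0.458 and 1.16 CPM in Control, 42.6 and 25.3 CPM at 12 h, 214.8 and 230.5 CPM at 72 h under NL and 164.5 and 172.1 CPM at 72 h under HL. Its numerical neighbour g15318 was at 0.0982 and 0.369 CPM in Control, 11.2 and 8.86 CPM at 12 h, 67.1 and 77.1 CPM at 72 h under NL and 51.4 and 43.0 CPM at 72 h under HL. Both genes showed a step at each sampling time, and neither passed the test between the lights (edgeR adjusted p = 0.741 for g15319 and 0.48 for g15318). g10941 was at 15.2 and 26.6 CPM in Control, 64.6 and 53.9 CPM at 12 h, and between 175.3 and 192.3 CPM in all 4 libraries at 72 h.

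Some members peaked at 12 h. g13071 was at 18.8 and 32.9 CPM in Control, 370.2 and 410.9 CPM at 12 h, 147.8 and 163.4 CPM at 72 h under NL, and 142.6 and 92.6 CPM at 72 h under HL. It fell by 1.73 ± 0.32 on the log2 scale from 12 h to 72 h under HL (edgeR adjusted p = 0.00506), the one fall under HL that held in all 12 alternatives. Under NL its log2 change was -1.33 ± 0.32 (edgeR adjusted p = 0.0133), lost without the deeper Nst12hHL library (0.0717) or either Nst72hNL library (0.0962 and 0.0720). Its 12 h libraries were the highest of the 8, and the 72 h libraries stayed above both Control libraries.

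g234 and g1183 were the other members called lower under both lights. g234 was at 0.393 and 0.947 CPM in Control, 83.3 and 98.2 CPM at 12 h, 35.0 and 34.9 CPM at 72 h under NL, and 35.7 and 55.7 CPM at 72 h under HL. g1183 was at 17.8 and 26.9 CPM in Control, 127.5 and 172.6 CPM at 12 h, and between 83.3 and 91.0 CPM at 72 h. For both genes each call was lost without at least 1 library, with adjusted p up to 0.225 for g234 and 0.229 for g1183.

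g14547 and g11510 separated the libraries at 72 h. g14547 was at 13.5 and 12.2 CPM in Control and 682.6 and 739.0 CPM at 12 h, and then at 54.3 and 58.4 CPM at 72 h under NL. It fell by 3.66 ± 0.66 on the log2 scale under NL (edgeR adjusted p = 0.00393), which held in all 12 alternatives. Under HL its libraries were at 96.1 and 498.7 CPM, and the log2 difference from 12 h was -1.26 ± 0.61 (edgeR adjusted p = 0.148). g11510 was at 2.13 and 1.59 CPM in Control, 204.8 and 226.0 CPM at 12 h, 45.3 and 48.3 CPM at 72 h under NL, and 60.6 and 183.6 CPM at 72 h under HL. Its log2 change under NL was -2.20 ± 0.45 (edgeR adjusted p = 0.00667) that held in all 12 alternatives. In both genes both Nst72hHL libraries lay between the Nst72hNL and the Nst12hHL levels, the shallower nearer to Nst72hNL and the deeper nearer to Nst12hHL. Of the 34 members 2-fold apart in Nst72hHL, 18 lay nearer to the Nst12hHL mean in the deeper library, beside 68.6% of the 1408 genes tested that were so far apart.

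g10248 was barely detected in replete cells, with 0.0982 and 0.209 CPM. It was at 29.1 and 28.4 CPM at 12 h, 12.0 and 14.1 CPM at 72 h under NL, and 6.19 and 16.6 CPM at 72 h under HL. Its log2 change from 12 h was -1.34 ± 0.43 under HL (edgeR adjusted p = 0.0474), and it was lost when any library but the deeper Nst72hHL one was left out, with adjusted p between 0.0510 and 0.158. Under NL it was -1.14 ± 0.43 and did not pass (edgeR adjusted p = 0.0695).

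**Figure D4:**
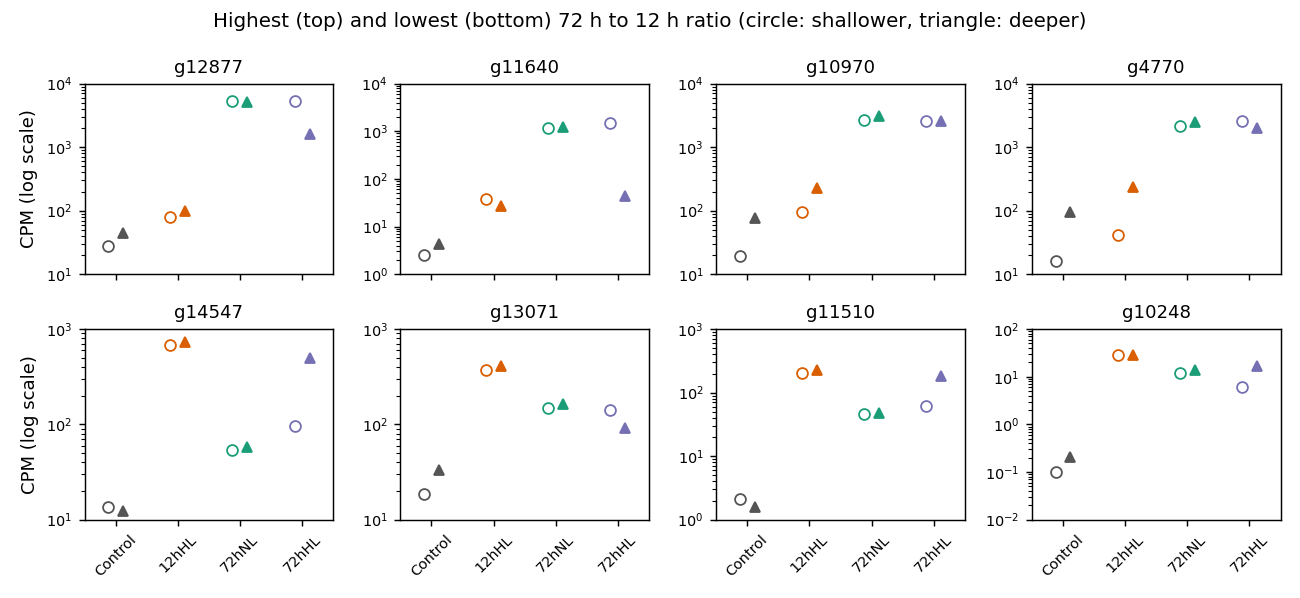
CPM (y axis, log scale) of the 4 members with the highest ratio of 72 h to 12 h FPKM (top) and the 4 with the lowest (bottom) in the 2 libraries of each condition (circle, shallower; triangle, deeper). g12877 goes from 80.7 and 99.4 CPM at 12 h to 5240 and 5230 CPM at 72 h under NL, and g14547 from 682.6 and 739.0 CPM to 54.3 and 58.4 CPM. In g11640 the Nst72hHL libraries are at 1476 and 44.6 CPM.

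The lights were compared at 72 h. The selection used the levels of both conditions, and the smallest change was that of Nst72hNL in 46 members and of Nst72hHL in 18. The counts and the median difference below are shaped by it and are a description. In Nst72hHL 2 members were called higher than in Nst72hNL (0.730% of genes tested) and 0 were called lower (0.299%). At an unadjusted p under 0.05, 25 members were higher (7.40% of genes tested) and 2 lower (4.73%), and DESeq2 called 15 higher (3.37%) and 1 lower (1.64%). By pooled FPKM with no test, 20 members were at least 2-fold higher under HL (2.78% of genes) and 2 were 2-fold lower (1.18%). The median log2 difference of the members was 0.29, beside 0.01 over all genes.

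The 2 members called were g15526 and g12103. g15526 was at 1.28 and 1.51 CPM in Control, 17.7 and 30.5 CPM at 12 h, 26.1 and 27.8 CPM at 72 h under NL, and 103.4 and 139.9 CPM at 72 h under HL. It was higher under HL by 2.18 ± 0.29 on the log2 scale (edgeR adjusted p = 0.0174), and the call was lost without the shallower (0.216) or the deeper (0.195) Nst72hNL library or the deeper Nst72hHL library (0.0854). g12103 was at 4.52 and 3.71 CPM in Control, 48.2 and 48.5 CPM at 12 h, 24.3 and 25.0 CPM at 72 h under NL, and 49.6 and 56.3 CPM at 72 h under HL. It was higher under HL by 1.10 ± 0.18 (edgeR adjusted p = 0.0348), and the adjusted p was 0.494 and 0.423 without the shallower and the deeper Nst72hNL library, 0.151 without the deeper Nst72hHL library, and 0.0671 and 0.0665 without the shallower and the deeper Nst12hHL library. With library totals in place of TMM factors it was 0.0604. In both genes the Nst72hNL libraries lay under both Nst72hHL libraries.

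The members with the widest difference between the lights in pooled FPKM did not pass the test. g12039 was at 21.96 FPKM under NL and 129.6 FPKM under HL, with 28.6 and 31.5 CPM and 103.0 and 232.7 CPM in the libraries (edgeR adjusted p = 0.312). g15392 was at 33.1 and 161.0 FPKM, with 54.3 and 57.0 CPM and 124.9 and 373.2 CPM (edgeR adjusted p = 0.508). g12337 was at 363.3 FPKM under NL and 174.0 FPKM under HL, with 522.6 and 536.5 CPM against 579.8 and 52.9 CPM (edgeR adjusted p = 0.83). g1188 was at 75.4 and 42.1 FPKM, with 103.3 and 110.1 CPM against 115.7 and 25.7 CPM (edgeR adjusted p = 0.782). In g12337 and g1188 the lower HL level came from the deeper library alone.

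Some members were numerical neighbours. Their gene numbers follow each other in 9 runs, 8 pairs and a run of 3, which hold 19 of the 150 members (12.7%). Members made up 0.897% of all genes, which is not the matching share, since a gene has a neighbour on each side. Among the 16722 genes, 275 that were not members also lay next to a member. No share matched for expression was computed, and no clustering is read from these values. The runs were g12142 to g12144, g10247 with g10248, g12103 with g12104, g15000 with g15001, g15318 with g15319, g14798 with g14799, g13015 with g13016, g11486 with g11487, and g4770 with g4771. In 5 further pairs, 1 gene lies between the members: g61 with g63, g9027 with g9029, g12875 with g12877, g14629 with g14631, and g15524 with g15526. Gene numbers stand in for position, since no genome was used here. Whether neighbours overlap, lie on opposite strands or are near-identical copies, so that reads could be shared between them, could not be told from the sources used here, and their values are uncertain in that respect.

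Genes next to members were counted in the same way, leaving out neighbours that are members themselves. Of these 275 flanking genes 247 were tested, and 17% were called higher than Control at 12 h, 21.5% at 72 h under NL and 24.7% at 72 h under HL, beside 15.8%, 17% and 17.6% of all genes tested. The median log2 change of these flanking genes was 0.25, 0.19 and 0.18. Of the genes that lie between 2 members, g12876 was at 0.196 and 0.161 CPM in Control and 12.8 and 15.5 CPM at 12 h, and g14630 at 0.327 and 0.257 CPM in Control and 46.6 and 17.2 CPM at 72 h under HL. Both were called higher than Control in all 3 comparisons and fell short of the 10 FPKM minimum, at 1.58 and 0.57 FPKM in Nst72hNL. They were named after their values were seen. Of the others in that position g62 passed the minimum with a score of 0.72, and g9028 and g15525 are listed at 0 in all 4 conditions.

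The members of the run of 3 had unlike levels. g12142 was at 9.20 and 15.2 CPM in Control, 28.6 and 39.1 CPM at 12 h, and between 45.9 and 57.6 CPM at 72 h. g12143 was at 4.68 and 5.06 CPM in Control, 9.70 and 15.4 CPM at 12 h, and between 21.2 and 27.6 CPM at 72 h. g12144 was at 33.8 and 41.2 CPM in Control, 68.8 and 129.9 CPM at 12 h, 301.9 and 312.4 CPM at 72 h under NL, and 316.2 and 455.7 CPM at 72 h under HL. In each gene the libraries came in the order Control, 12 h, 72 h without overlap. From 12 h to 72 h g12144 rose by 1.63 ± 0.34 on the log2 scale under NL (edgeR adjusted p = 0.00714) and by 1.96 ± 0.34 under HL (edgeR adjusted p = 0.00365), and both calls held in all 12 alternatives. For g12142 the same changes were 0.48 and 0.64 and did not pass the test (edgeR adjusted p = 0.192 and 0.107).

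The neighbours g10247 and g10248 differed in level by far more, with 350.3 and 36.8 FPKM at 12 h. The neighbours g12103 and g12104 parted at 72 h. Under NL g12103 fell by 0.97 ± 0.18 on the log2 scale from 12 h (edgeR adjusted p = 0.00427, and 0.0579 and 0.0512 without the shallower and the deeper Nst72hNL library), while g12104 had a log2 change of 0.16 ± 0.26 (edgeR adjusted p = 0.649). The difference between these 2 genes was not tested. The pairs g11486 with g11487 and g4770 with g4771 shared the gap between the Control libraries: g4771 was at 9.88 and 69.8 CPM there.

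**Figure D5:**
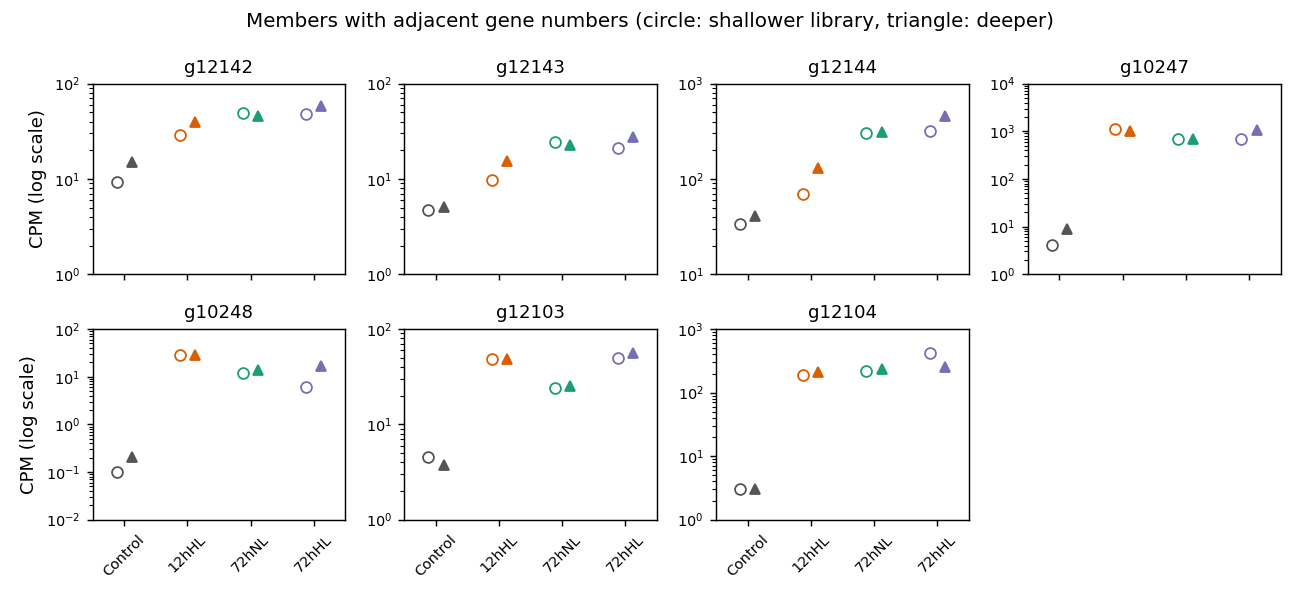
CPM (y axis, log scale) of 7 members with adjacent gene numbers in the 2 libraries of each condition (circle, shallower; triangle, deeper). In g12142, g12143 and g12144 the libraries come in the order Control, 12 h, 72 h, with a second rise that did not pass the test in g12142. g12103 is lower in Nst72hNL, at 24.3 and 25.0 CPM, than in the other N-deprived libraries.

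Gene length and transcript number set the members little apart. Their median length was 1928 bases, against 1765 bases for the genes that passed the FPKM minimum and 1724 bases for all genes. The shortest was g16611 with 363 bases and the longest g9381 with 5601 bases. More than 1 transcript was annotated in 36 members (24%), beside 21.9% of the genes that passed the minimum and 15.0% of all genes. Among these 36 the transcript of highest pooled level differed between conditions in 12, with no count over all genes to set beside it. Only 17 of the 36 had at least 10 FPKM in Control.

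Transcript shares were tested with edgeR's diffSpliceDGE, which asks whether the transcripts of a gene change unequally. Of the 36 members, 8 were called at 12 h (2.62% of 2327 genes tested), 12 at 72 h under NL (9.71%) and 9 at 72 h under HL (3.82%). In any comparison 13 were called. No count over all genes was made for the 13 or for the parts of them given next. Only 6 of the 13 had at least 10 FPKM in Control, and in 7 of the 13 the recovered and the pooled share in Control differed by over 10 percentage points. In g10247 the shorter transcript took 69.6% and 81.4% of the recovered transcript counts per length in the Control libraries and 99.5% to 99.8% in the N-deprived ones (edgeR adjusted p = 4.69e-05 at 12 h), while the pooled table puts it at 100% in Control. The calls are therefore given as counts, and nothing is read from g10247.

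Where Control was at or above 10 FPKM, the largest shifts in pooled transcript share were in g9509, g7792, g7129 and g13015, and none of the 4 genes passed the test (lowest edgeR adjusted p = 1.00, 0.867, 0.476 and 0.888). In g9509 the longest transcript took 35.3% of the pooled level in Control and 53.7% at 12 h, but its recovered share in the Control libraries was 76.4% and 31.02%. In g7129 the longest transcript took 82.2% and 56.8% in the Control libraries and 57.8% and 80.6% in the Nst72hHL libraries. In these genes the libraries of a condition differed as much as the conditions did. In g13015 the longer transcript took between 18.3% and 20.7% in the Control and Nst12hHL libraries and between 28.7% and 33.4% in the 72 h libraries, which do not overlap.

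At the lower edge of the list the scores were continuous. g12143, g3957 and g913 were the last members, with scores of 1.39, 1.39 and 1.39, and g2415, g11020 and g12953 the first genes outside, with 1.38, 1.38 and 1.38. g913 was at 41.9 FPKM in Control and 111.2, 265.5 and 223.4 FPKM in the N-deprived conditions, and g11020 just outside at 20.2 FPKM and 54.2, 119.4 and 104.5 FPKM. g3957 was at 6.12, 33.6, 17.6 and 25.5 FPKM, and g12953 at 3.27, 10.1, 11.3 and 13.6 FPKM.

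The genes of known function that the rule left out lay inside the same range of scores. With its score of 1.78 MLDP would have taken rank 96, and DesD5 with 1.67 rank 105. MLDP was at 466.4 and 567.4 CPM in Control, 2667 and 2807 CPM at 12 h, 1885 and 1967 CPM at 72 h under NL, and 2382 and 2831 CPM at 72 h under HL. DesD5 was at 380.3 and 467.3 CPM in Control, 1209 and 1278 CPM at 12 h, 3242 and 3462 CPM at 72 h under NL, and 3356 and 2911 CPM at 72 h under HL. From 12 h to 72 h MLDP did not pass the test in either light (edgeR adjusted p = 0.213 and 0.876), while DesD5 rose by 1.43 ± 0.30 on the log2 scale under NL (edgeR adjusted p = 0.00782) and by 1.33 ± 0.30 under HL (0.0122). Neither gene was 2-fold apart between the Control libraries.

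None of the 22 autophagy genes of the study's list were members, where members made up 0.897% of all genes. Of the 22, only 16 reached 10 FPKM in each N-deprived condition, and the rest could not be members by the rule. So short a list can hold no member at that share, and nothing is read from the absence of these genes. ATG1, the kinase that starts autophagy, came nearest among them at rank 344, with 6.96 FPKM in Control and 13.9, 17.7 and 14.6 FPKM under N deprivation, and VMP1, a membrane protein of the endoplasmic reticulum needed for autophagy, stood at rank 365. Of the 22 autophagy genes, 3 were called higher than Control at 12 h, 9 at 72 h under NL and 9 at 72 h under HL (15.8%, 17% and 17.6% of all genes tested), and 0 lower. Their median log2 changes were 0.26, 0.43 and 0.45 (0.08, 0.00 and 0.00 over all genes tested). ATG8, the protein that coats autophagosome membranes, was at 264.8 FPKM in Control and at 416.4, 827.2 and 962.5 FPKM, so its level was above the median of the members while its score stayed under the limit. The list of 10 qRT-PCR genes holds MLDP and DesD5, which the rule left out, and no member. Of these 10, 2, 5 and 5 were called higher in the same order, 1 was called lower at 72 h under NL, and the study chose that list partly on these samples.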

How the data were processed

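The authors sequenced total RNA of 4 conditions (32 samples) with TruSeq libraries. RSEM 1.2.9, Bowtie 1.0.0, DESeq, cutadapt 1.1 and CASAVA 1.8 are listed without roles in the submitters' processing notes, and no genome build or annotation was used here. Deposited were RSEM expected counts, TPM and FPKM with 95% intervals and lengths, with 1 pooled value per condition and transcript shares in percent. The authors also deposited pairwise DESeq comparisons and an analysis of deviance, whose fold changes, log2 ratios and p-values were not used. The deposited mean normalised counts of those comparisons were used as follows.

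Each condition appears in 3 of the 6 pairwise comparisons with size factors set anew. Its 3 means are combinations of the same 2 libraries, so their whole counts could be solved for. All values came out whole within 0.001, and simulated counts came back exactly in 100% of features. The recovered sums were 0.623, 0.699, 0.789 and 0.709 of the pooled expected counts in Control, Nst12hHL, Nst72hNL and Nst72hHL (medians over genes). The sources used here do not give the reason, or which labelled samples each library holds (both single-end and paired-end reads were made). The plan held no test, because pooled values have no replicates. The recovery and all tests were added after seeing the data.

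Counts of 15075 genes were fitted with edgeR 4.0.16 (R 4.3.3, filterByExpr, TMM, robust quasi-likelihood, Benjamini-Hochberg adjustment, threshold 0.05) over all 8 libraries. DESeq2 1.42.0, other scalings, no filter and leaving out each library were the 12 alternatives. Folds between libraries used CPM + 0.1. The fit was first run on simulated counts with 200 changed genes. The simulation gave a gene the same spread in every condition, unlike the recovered libraries, so it lends the results no weight. Intervals of FPKM cover counting and read assignment only.

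The members and gene lists were chosen with earlier results of these data known. Named members were the 8 highest scores, the 6 highest FPKM summed over N-deprived conditions, the 4 highest and 4 lowest ratios of 72 h to 12 h, the 3 highest and 3 lowest ratios of HL to NL, the 3 genes on each side of the limit, the 4 largest transcript shifts, 3 runs of adjacent numbers and both genes left out. Others were named after their values were seen. No column of the deposited tables belonged to other samples.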

Additional observations from a re-analysis of the deposited data

Results flagged for a closer look

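Members whose change from Control differed between conditions by a direct test are listed here. Each is given with the log2 difference between the 2 changes, which equals the difference between the conditions themselves, and the edgeR adjusted p. All were selected on their levels in these conditions, and several were named for extreme ratios between them. The list is therefore a description. Between the lights at 72 h the differences (Nst72hHL minus Nst72hNL) were 2.18 for g15526 (0.0174) and 1.10 for g12103 (0.0348).

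Between 72 h and 12 h under HL, named members with a larger change at 72 h were g12877 at 5.26 (0.000683), g11640 at 4.55 (0.0280), g4770 at 4.06 (0.0169), g10970 at 4.00 (0.00373), g15392 at 3.79 (0.0429), g12039 at 3.32 (0.0291), g12011 at 3.22 (0.0200) and g14031 at 2.37 (0.0178). Smaller differences of the same direction were those of g12144 at 1.96 (0.00365), g14631 at 1.74 (0.0369), g7792 at 1.41 (0.0297), g16332 at 1.00 (0.0312), g12143 at 0.96 (0.0300) and g3218 at 0.89 (0.0489). g13071 at -1.73 (0.00506) and g10248 at -1.34 (0.0474) had the smaller change at 72 h. In g12039 and g15392 the Nst12hHL libraries were 3.33 and 30.2 CPM, and 1.93 and 34.1 CPM. Of the 72 h calls against 12 h under HL given here, those of g12877, g10970, g12144 and g13071 held in all 12 alternatives, and each of the others was lost in at least 1.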

How the results depend on the processing

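No paired analysis was possible because the recovered libraries carry no replicate number. Of the 150 members, 113 to 149 were chosen again under the 10 other forms of the selection, fewest with a minimum of 20 FPKM, where members with adjacent numbers were 12 and not 19. The median log2 change at 72 h under NL was 2.08 with a pseudocount of 5 FPKM. Members 2-fold higher at 72 h under NL than at 12 h numbered 56 and 23 at ratios of 1.5 and 3, and those lower 28 and 5, or 8 with median-of-ratios scaling. Under HL those lower than at 12 h numbered 14 and 1, or 3 with the authors' means. Between the lights those higher under HL numbered 40 and 9, and those lower 11 and 0, or 0 with the authors' means. For the tests, DESeq2 called 17 members lower at 72 h under NL than at 12 h, and between the lights 15 higher and 1 lower. Library totals in place of TMM gave 19 lower under NL and 35 higher under HL against 12 h, and 1 higher between the lights. Leaving out each library, the count called at 72 h against 12 h was 16 to 54 higher and 3 to 14 lower under NL, and 23 to 68 higher and 1 to 6 lower under HL. Between the lights it was 0 to 11 higher and 0 to 3 lower. Against Control it was 103 to 136 at 12 h, 134 to 148 at 72 h under NL and 137 to 149 at 72 h under HL, and 144 to 150 members had all N-deprived libraries above Control. A lone library was then assumed to vary like the others. No share of all genes was computed for the counts in this paragraph, except for DESeq2 between the lights. No named gene reversed, and 165 results of named genes under an alternative lost their call while 1539 stayed on their side of the threshold. These 2 numbers pool comparisons with Control, which the selection used, and comparisons between N-deprived conditions. Calls between N-deprived conditions were lost more often than calls against Control. The cause was not tested where fewer libraries do not show it. With 2 libraries a condition, small changes can be missed.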
